A study of Mus musculus with 8 samples.

Results

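The unfolded protein response and the ATF4 response were followed through 38 genes chosen by name, out of 18193 genes named on the array. They comprised 19 genes of the ATF4 and amino acid arm (7 regulators and effectors, 6 enzymes of amino acid and one-carbon metabolism, 6 amino acid transporters), 4 genes for the ER stress sensors and XBP1, and 15 genes for ER chaperones and ER-associated degradation (ERAD). All 38 had a probe set, the brightest probe set stood for each gene, and 37 passed the filter on dim signals. The exception, Slc7a11, the light chain of the cystine and glutamate antiporter, exceeded its array's median on 1 of 8 arrays. Its signals were 49.7 and 87 in KO cells with db-cAMP, 56.7 and 28.8 in WT cells with db-cAMP, 40.6 and 43.1 in KO cells with vehicle and 36.3 and 52.9 in WT cells with vehicle, and it was not tested. Of the 38, 34 genes were above the median on all 8 arrays, and Chac1, Sesn2 and Ern1 on 7.

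The cells were splenic CD4 T cells of mice aged 8 weeks, purified on an autoMACS magnetic separator and stimulated with antibodies to CD3 and CD28 for 15 h. The 4 groups of 2 arrays were IFN-gR1-deficient cells (KO) with db-cAMP, wild-type cells (WT) with db-cAMP, KO cells with vehicle and WT cells with vehicle, each agent being present for the last 3 h. Every group, vehicle included, was therefore antibody-stimulated, and db-cAMP (dibutyryl cyclic AMP) is a cell-permeable cyclic AMP analogue. The deficiency is that of the mouse and not of T cells alone, and its allele and the strain are unstated in the labels. Titles and genotype entries, which were followed, mark 4 arrays as KO, although the free-text description of each names WT cells. Titles name the 2 arrays of a group biological replicates, and since separate mice or cultures are not stated, p-values measure the spread between these samples only. Each value is a linear signal intensity that carries the scaling given to it by the submitters, so levels of different genes are not compared.

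ATF4 is a transcription factor of the CREB/ATF family whose translation increases when the initiation factor eIF2 is phosphorylated, by PERK during ER stress or by GCN2 during amino acid shortage. It raises the transcription of amino acid transporters, biosynthetic enzymes and aminoacyl-tRNA synthetases, and of regulators such as CHOP and TRIB3. The unfolded protein response has a further pair of sensors in the ER membrane. IRE1 splices the Xbp1 message into the form that encodes an active factor, and ATF6 is cleaved to release one, and both factors raise chaperone and ERAD genes. Activated T cells take up large amounts of amino acids, and secretory cells rely on XBP1 to expand the ER. The array measures messages only, so ATF4 translation, eIF2 phosphorylation and Xbp1 splicing were not measured.

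The targeted gene, Ifngr1, the ligand-binding chain of the receptor, had signals of 1056 and 1272 in KO cells with db-cAMP, 7319 and 8201 in WT cells with db-cAMP, 439 and 378 in KO cells with vehicle and 905 and 873 in WT cells with vehicle. KO lay below WT under each treatment, and where the probe set lies relative to the deletion is not known here. Replicate arrays correlated at 0.961 to 0.977 across 12091 genes, which are not independent replicates. Of the T cell markers, 7 of 8 were measured, and all 7 were above the median on every array. At an adjusted p under 0.05 in limma, 3 were higher and 0 lower with db-cAMP in KO cells (4.7% and 3.68% of all genes). In WT cells 3 were higher and 3 lower (16.4% and 18.6%). Between KO and WT cells 3 were higher and 3 lower under db-cAMP (15.9% and 13.3%). Under vehicle 1 was higher and 4 were lower (5.06% and 5.78%). Signals of Cd4 itself were between 253 and 539, above the array median on all 8 arrays. Cd8a lay between 110.3 and 149.7, and Cd8b1 differed between KO and WT cells by -0.89 ± 0.21 (adjusted p = 0.00514) under db-cAMP and -0.92 ± 0.21 (adjusted p = 0.0121) under vehicle. Of the NK cell list (2 of 3 measured), Klrd1 was higher with db-cAMP by 1.18 ± 0.15 (adjusted p = 0.000258) in KO and 0.83 ± 0.15 (adjusted p = 0.000719) in WT cells, and Ncr1 was below the array median on all 8 arrays. The list summed to 936 to 944 in KO cells with db-cAMP and 769 to 828 in WT cells with db-cAMP, and to 396 to 471 in KO cells with vehicle and 408 to 525 in WT cells with vehicle. The plasma cell list (5 of 5 measured), relevant to Xbp1, had summed signals of 10171 to 10676 in KO cells with db-cAMP and 9941 to 10097 in WT cells with db-cAMP, and of 12362 to 13592 in KO cells with vehicle and 15802 to 16423 in WT cells with vehicle. Almost all of that sum was Irf4, which activated T cells express too, whereas Tnfrsf17 was below the array median on all 8 arrays. B cell markers (6 of 7 measured) summed to 413 to 476 in KO cells with db-cAMP, 623 to 685.8 in WT cells with db-cAMP, 489 to 533 in KO cells with vehicle and 554 to 619 in WT cells with vehicle. Poly-A spike-in controls averaged 4238 and 3507 in KO cells with db-cAMP and 1250 and 1486 in WT cells with db-cAMP, and 3355 and 3007 in KO cells with vehicle and 1019 and 1109 in WT cells with vehicle. They separated the genotypes without overlap and, within each genotype, were higher with db-cAMP. The 18S rRNA signal was likewise higher with db-cAMP, at 38701 and 31397 in KO and 37628 and 36892 in WT cells, against 24553 and 26853 in KO and 28575 and 25511 in WT cells with vehicle. The 3-prime over 5-prime ratio of 18S was 0.623 and 0.548 in KO and 0.441 and 0.41 in WT cells with db-cAMP. With vehicle it was 0.522 and 0.513 in KO and 0.386 and 0.353 in WT cells, apart by genotype and, within each genotype, by treatment. That ratio of Gapdh was 0.85 and 0.817 in KO and 0.734 and 0.741 in WT cells with db-cAMP. With vehicle it was 0.779 and 0.797 in KO and 0.769 and 0.738 in WT cells. The Actb ratio was 1.44 and 1.34 in KO and 1.54 and 1.72 in WT cells with db-cAMP. With vehicle it was 1.35 and 1.4 in KO and 1.46 and 1.64 in WT cells. Under each treatment the Gapdh ratio was thus higher in KO cells and the Actb ratio lower. Hybridization controls averaged 13692 and 12909 in KO and 17264 and 22774 in WT cells with db-cAMP, and 12289 and 12310.1 in KO and 15545 and 17926 in WT cells with vehicle, lower in KO under each treatment. The part of these differences in the results was not tested, and in such bulk samples fewer cells of a type cannot be told apart from less RNA per cell.

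In KO cells db-cAMP changed 7 of the 37 tested genes, 5 upward and 2 downward. The background was 4.7% of all 12091 genes higher and 3.68% lower at an adjusted p under 0.05 (limma, Benjamini-Hochberg over all genes). In WT cells it changed 23, 8 upward and 15 downward, against 16.4% of all genes higher and 18.6% lower. Of 6 enzymes 1 was lower and 0 higher in KO cells, and 6 were lower and 0 higher in WT cells, and of 5 tested transporters 1 was lower and 0 higher in KO cells, and 3 were lower and 0 higher in WT cells. Of the 7 regulators of the ATF4 pathway 1 was higher and 0 lower in KO cells, and 3 were higher and 1 lower in WT cells. Of the 4 genes for sensors and XBP1, 2 were higher and 0 lower in KO cells, and 2 higher and 1 lower in WT cells. ER chaperone and ERAD genes gave 2 higher and 0 lower of 15 in KO cells, and 3 higher and 4 lower in WT cells. Of the 23 genes called in WT cells, 21 had the same sign in KO cells, 22 had a smaller change there, and 6 were called in the same direction. These 23 were chosen on their WT change, which favours a smaller value elsewhere, and among all 4233 genes called in WT cells the shares were 89% with the same sign and 97.9% smaller.

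With 1 array left out, 3 to 8 members were called in KO cells and 19 to 23 in WT cells, calls gained by Shmt2, Mthfd2 and Dnajb11 in KO cells included. The KO count was 4 without KO db-cAMP replicate 1, 4 without KO db-cAMP replicate 2, 4 without KO vehicle replicate 1 and 3 without KO vehicle replicate 2. It was 1 without the intensity trend in the variance, and 4 with the mean of a gene's probe sets. Calls over all genes fell there too, from 568 higher and 445 lower to 144 and 44 without the trend. With the mean of probe sets they were 267 and 212. With arrays set to an equal 75th percentile the KO split of the members was 4 higher and 4 lower.

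**Figure D1:**
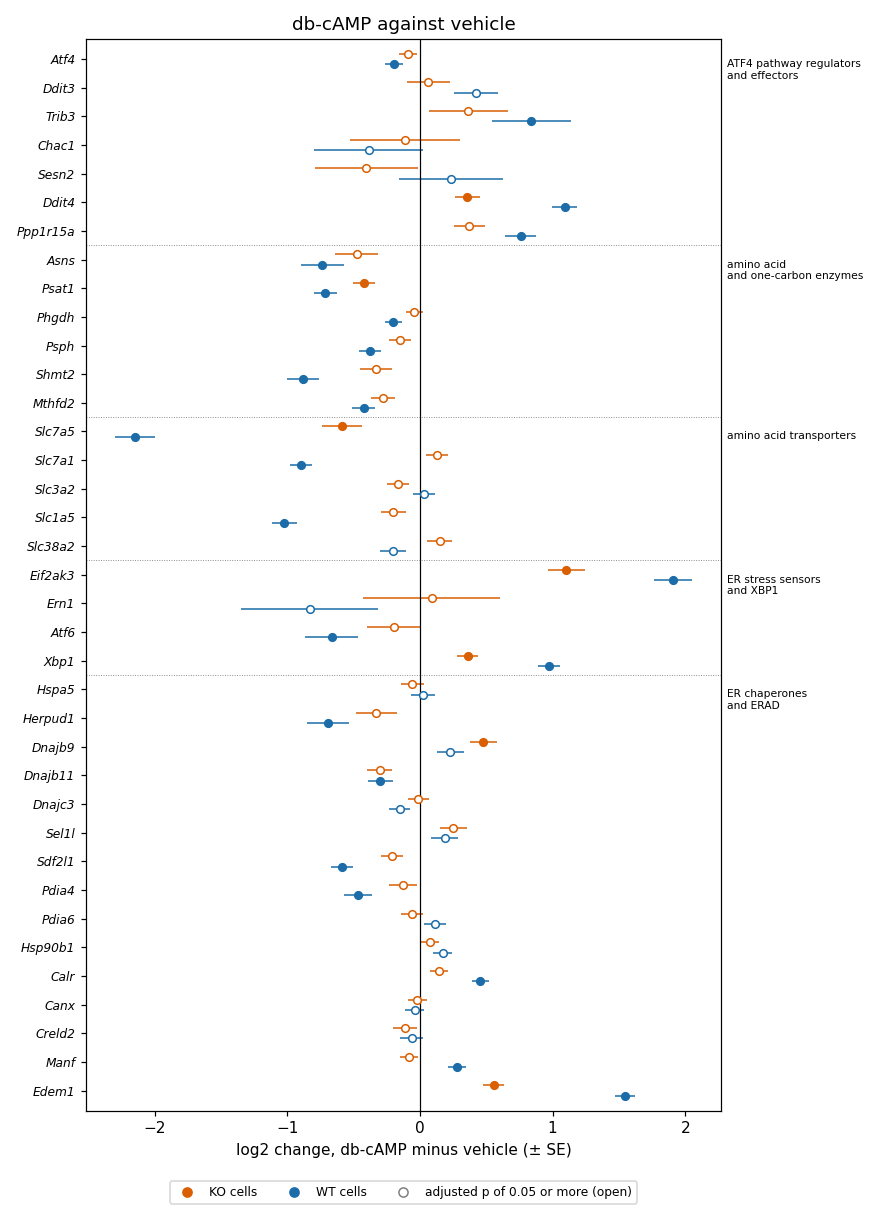
The change with db-cAMP is plotted for the 37 tested genes on the log2(signal + offset) scale, with the standard error of the fit, for KO and for WT cells; filled points have an adjusted p under 0.05. The enzymes all lie left of 0 in both genotypes, the KO points lie nearer to 0 for 22 of the 23 genes called in WT, and Slc7a5, at -2.15 in WT cells, lies farthest left.

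Among the regulators, Ddit4 had the largest change in WT cells and the only call in KO cells. It encodes REDD1, an inhibitor of the growth kinase complex mTORC1. Its signals were 2800.0 and 3354 in KO cells with db-cAMP, against 2353 and 2429.7 in KO cells with vehicle. WT signals were 3959 and 3648 with db-cAMP, against 1747 and 1819 with vehicle. The arrays of the 2 treatments did not overlap in either genotype. The log2 change, taken throughout after adding an offset of 5.48 to each signal, was 0.36 ± 0.094 (adjusted p = 0.0334) in KO cells and 1.09 ± 0.094 (adjusted p = 9.48e-07) in WT cells. The KO call of Ddit4 was lost without KO db-cAMP replicate 2 or either KO vehicle array (adjusted p = 0.128 to 0.341, and 0.022 to 0.341 over all 18 alternatives). The effect was smaller in KO cells by the test of the difference itself, -0.73 ± 0.13 (adjusted p = 0.00293), where a negative value means a lower KO effect. Its promoter is shown because it was the ATF4-arm gene with the largest rise among those called in both genotypes.
Ddit4 promoter, GRCm38.p6 chr10:59951721-59952020, minus strand: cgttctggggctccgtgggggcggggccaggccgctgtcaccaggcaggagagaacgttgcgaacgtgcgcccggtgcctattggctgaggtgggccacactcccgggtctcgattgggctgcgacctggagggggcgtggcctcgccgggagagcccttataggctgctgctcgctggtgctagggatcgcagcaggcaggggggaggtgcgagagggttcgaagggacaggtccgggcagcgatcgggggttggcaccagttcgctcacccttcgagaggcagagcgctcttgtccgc
In this 300-base window, 250 bases before to 50 after the RefSeq start, 2 copies of CCACG and none of the other 4 motifs described further on were found, and CCACG alone is not set in capitals.

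Ppp1r15a, which encodes the GADD34 subunit that directs dephosphorylation of eIF2, was also higher with db-cAMP in WT cells. It had signals of 973 and 999.8 in KO cells with db-cAMP, against 692 and 835 in KO cells with vehicle. WT signals of Ppp1r15a were 1219 and 1286 with db-cAMP, against 754 and 719 with vehicle. The treatments were apart in both genotypes. The log2 change was 0.37 ± 0.12 (adjusted p = 0.07) in KO cells, which did not pass, and 0.76 ± 0.12 (adjusted p = 0.00016) in WT cells. Trib3, a pseudokinase gene that ATF4 and CHOP induce, had 162 and 144 in KO cells with db-cAMP, against 136 and 101 in KO cells with vehicle, apart but not called (adjusted p = 0.571). It had 186 and 224 in WT cells with db-cAMP, against 96.8 and 129 in WT cells with vehicle, also apart, with a change of 0.84 ± 0.30 (adjusted p = 0.0429). The WT call of Trib3 was lost without either KO db-cAMP array, either WT db-cAMP array or WT vehicle replicate 1 (adjusted p = 0.0582 to 0.202, and 0.037 to 0.202 over all 18 alternatives).

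Atf4 itself was slightly lower with db-cAMP in WT cells. Its signals were 7371 and 7813 in KO cells with db-cAMP, against 7962 and 8164 in KO cells with vehicle. WT signals of Atf4 were 7171 and 7418 with db-cAMP, against 8271 and 8445 with vehicle. Vehicle arrays were above db-cAMP arrays in both genotypes. The log2 change was -0.087 ± 0.067 (adjusted p = 0.542) in KO cells and -0.20 ± 0.067 (adjusted p = 0.0371) in WT cells. The WT call of Atf4 was lost without either KO db-cAMP array, either WT db-cAMP array or either WT vehicle array (adjusted p = 0.055 to 0.138, and 0.0278 to 0.534 over all 18 alternatives). Ddit3, which encodes CHOP, changed by 0.064 ± 0.16 (adjusted p = 0.896) in KO cells and, with 514 and 537 in WT cells with db-cAMP, against 337 and 451 in WT cells with vehicle, by 0.43 ± 0.16 (adjusted p = 0.062) in WT cells, both short of the threshold. The other, dimmer Ddit3 probe set changed by 0.17 in KO and -0.42 in WT cells, and the mean of its probe sets by 0.0029 in WT cells. Chac1, a glutathione-degrading enzyme, and Sesn2, a leucine-binding inhibitor of mTORC1 signalling, were dim and had no call in any of the 5 comparisons. Chac1 lay between 56.3 and 151 over the 8 arrays and Sesn2 between 59.2 and 193. The other probe set of Sesn2 changed by -0.88 in WT cells where the one used changed by 0.24. Between KO and WT cells under vehicle the one used differed by 1.25 ± 0.39 (adjusted p = 0.0593) and the other by -0.047.

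On their brightest probe sets the 6 enzymes had a median log2 change of -0.30 in KO cells, where 1 was called, and all 6 were lower with db-cAMP in WT cells, where the median was -0.57. Over all genes tested the medians were -0.0036 in KO and 0.01 in WT cells. Shmt2, the mitochondrial serine hydroxymethyltransferase, had 3837 and 4139.7 in KO cells with db-cAMP, against 5001 and 5025 in KO cells with vehicle. WT signals of Shmt2 were 3289 and 2331 with db-cAMP, against 5096 and 5116 with vehicle. Both pairs were well apart although the WT db-cAMP arrays differed, and the changes were -0.33 ± 0.12 (adjusted p = 0.126) in KO and -0.88 ± 0.12 (adjusted p = 6.39e-05) in WT cells. The dimmer Shmt2 probe sets changed by -0.14, 0.40 and 0.23 in KO and by -0.48, -0.73 and -0.55 in WT cells. Asns, asparagine synthetase, had 373 and 359 in WT cells with db-cAMP, against 644 and 583 in WT cells with vehicle, and its changes were -0.48 ± 0.16 (adjusted p = 0.0973) in KO and -0.73 ± 0.16 (adjusted p = 0.00277) in WT cells. The second Asns probe set changed by -0.0069 in KO and -0.44 in WT cells. Psat1, an aminotransferase of serine synthesis, was the enzyme called in both genotypes. It had 3528 and 3699.7 in KO cells with db-cAMP, against 4518 and 5185 in KO cells with vehicle. WT signals of Psat1 were 3373 and 3076 with db-cAMP, against 5339.5 and 5218 with vehicle. Both pairs were without overlap, and the changes were -0.42 ± 0.085 (adjusted p = 0.00686) in KO and -0.71 ± 0.085 (adjusted p = 1.7e-05) in WT cells. The second Psat1 probe set changed by -0.18 in KO and -0.76 in WT cells. The KO call of Psat1 was lost without KO db-cAMP replicate 1 or KO vehicle replicate 2 (adjusted p = 0.0807 to 0.0968, and 0.00438 to 0.143 over all 18 alternatives).

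Its promoter is the window of the ATF4-arm gene with the largest fall among those called in both genotypes and present in the sequence table, which holds a pair of Psat1 starts, the first being shown.
Psat1 promoter, GRCm38.p6 chr19:15925010-15925309, minus strand: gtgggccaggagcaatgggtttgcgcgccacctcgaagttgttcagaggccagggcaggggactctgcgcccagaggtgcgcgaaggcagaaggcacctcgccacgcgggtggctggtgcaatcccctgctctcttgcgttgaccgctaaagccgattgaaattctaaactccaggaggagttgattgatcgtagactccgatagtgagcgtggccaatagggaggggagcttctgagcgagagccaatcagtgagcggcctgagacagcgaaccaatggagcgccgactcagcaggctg
Like that of Ddit4, this window held 2 copies of CCACG and none of the other 4 motifs.

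The other 3 enzymes were called in WT cells, and in each the WT db-cAMP arrays lay below the WT vehicle arrays. Mthfd2, the mitochondrial folate dehydrogenase of one-carbon metabolism, had 2799.7 and 2912 in WT cells with db-cAMP, against 3913 and 3757 in WT cells with vehicle, with changes of -0.28 ± 0.088 (adjusted p = 0.0738) in KO and -0.42 ± 0.088 (adjusted p = 0.00177) in WT cells. The second Mthfd2 probe set changed by -0.29 in KO and -0.55 in WT cells. Psph, the phosphatase that completes serine synthesis, had 2543 and 2360.0 in WT cells with db-cAMP, against 3173 and 3183 in WT cells with vehicle, with -0.15 ± 0.081 (adjusted p = 0.332) in KO and -0.37 ± 0.081 (adjusted p = 0.00244) in WT cells. Phgdh, which encodes the first enzyme of that pathway, changed least, by -0.043 ± 0.064 (adjusted p = 0.797) in KO cells and, with 12669 and 12485 in WT cells with db-cAMP, against 14687 and 14244 in WT cells with vehicle, by -0.20 ± 0.064 (adjusted p = 0.0251) in WT cells. Its dimmer probe sets changed by -0.14, -0.19 and 0.16 in KO and by -0.20, -0.17 and -0.21 in WT cells. The WT call of Phgdh was lost without either WT db-cAMP array or either WT vehicle array (adjusted p = 0.0543 to 0.124, and 0.00266 to 0.124 over all 18 alternatives).

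The largest fall of any of the 37 genes was that of Slc7a5, the light chain of the LAT1 transporter that imports leucine and other large neutral amino acids. It had signals of 1982 and 2726 in KO cells with db-cAMP, against 3358 and 3632 in KO cells with vehicle. WT signals of Slc7a5 were 933 and 679 with db-cAMP, against 3544 and 3552 with vehicle. No db-cAMP array reached a vehicle array in either genotype, and the KO db-cAMP arrays lay between the WT db-cAMP arrays and all vehicle arrays. The changes were -0.59 ± 0.15 (adjusted p = 0.0291) in KO and -2.15 ± 0.15 (adjusted p = 1.2e-07) in WT cells. The KO call of Slc7a5 was lost without KO db-cAMP replicate 1 or either KO vehicle array (adjusted p = 0.087 to 0.299, and 0.00998 to 0.299 over all 18 alternatives). The difference between the effects was 1.56 ± 0.21 (adjusted p = 0.000418).

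Slc3a2, the heavy chain CD98 that pairs with LAT1, did not follow Slc7a5 in WT cells. It had 2636 and 3000.3 in KO cells with db-cAMP, against 3084 and 3232 in KO cells with vehicle. WT signals of Slc3a2 were 3296 and 3276 with db-cAMP, against 3296 and 3137 with vehicle. The WT groups overlapped, and the KO db-cAMP arrays lay below the KO vehicle arrays. Changes were -0.17 ± 0.083 (adjusted p = 0.286) in KO and 0.031 ± 0.083 (adjusted p = 0.812) in WT cells.

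Slc1a5, the neutral amino acid transporter ASCT2 that imports glutamine, and Slc7a1, the cationic transporter CAT1 that imports arginine, had no call in KO cells and were lower with db-cAMP in WT cells. Slc1a5 had 2076 and 1912 in KO cells with db-cAMP, against 2359.7 and 2221 in KO cells with vehicle. WT signals of Slc1a5 were 1325 and 1256 with db-cAMP, against 2482 and 2772 with vehicle. Its db-cAMP arrays lay below vehicle in both genotypes, with changes of -0.20 ± 0.092 (adjusted p = 0.237) in KO and -1.02 ± 0.092 (adjusted p = 1.32e-06) in WT cells. These effects differed by 0.82 ± 0.13 (adjusted p = 0.00114). Slc7a1 had 4422 and 4366 in KO cells with db-cAMP, against 3695 and 4351 in KO cells with vehicle. WT signals of Slc7a1 were 2708 and 2736 with db-cAMP, against 5053 and 5093 with vehicle. In KO cells its db-cAMP arrays were above the vehicle arrays by a narrow margin, and in WT cells they were far below. Its changes were 0.13 ± 0.083 (adjusted p = 0.429) in KO and -0.90 ± 0.083 (adjusted p = 1.85e-06) in WT cells, and the effects differed by 1.03 ± 0.12 (adjusted p = 0.000122). For Slc7a1 the second probe set, also bright, changed by -0.012 in KO and -0.43 in WT cells, but the dimmest one changed by 1.86 in WT cells, and the mean of the 3 probe sets was 0.18 (adjusted p = 0.446) for the WT change and -0.13 (adjusted p = 0.822) for the difference. Slc38a2, the sodium-coupled transporter SNAT2, was not called, with changes of 0.15 ± 0.10 (adjusted p = 0.443) in KO and -0.20 ± 0.10 (adjusted p = 0.129) in WT cells.

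**Figure D2:**
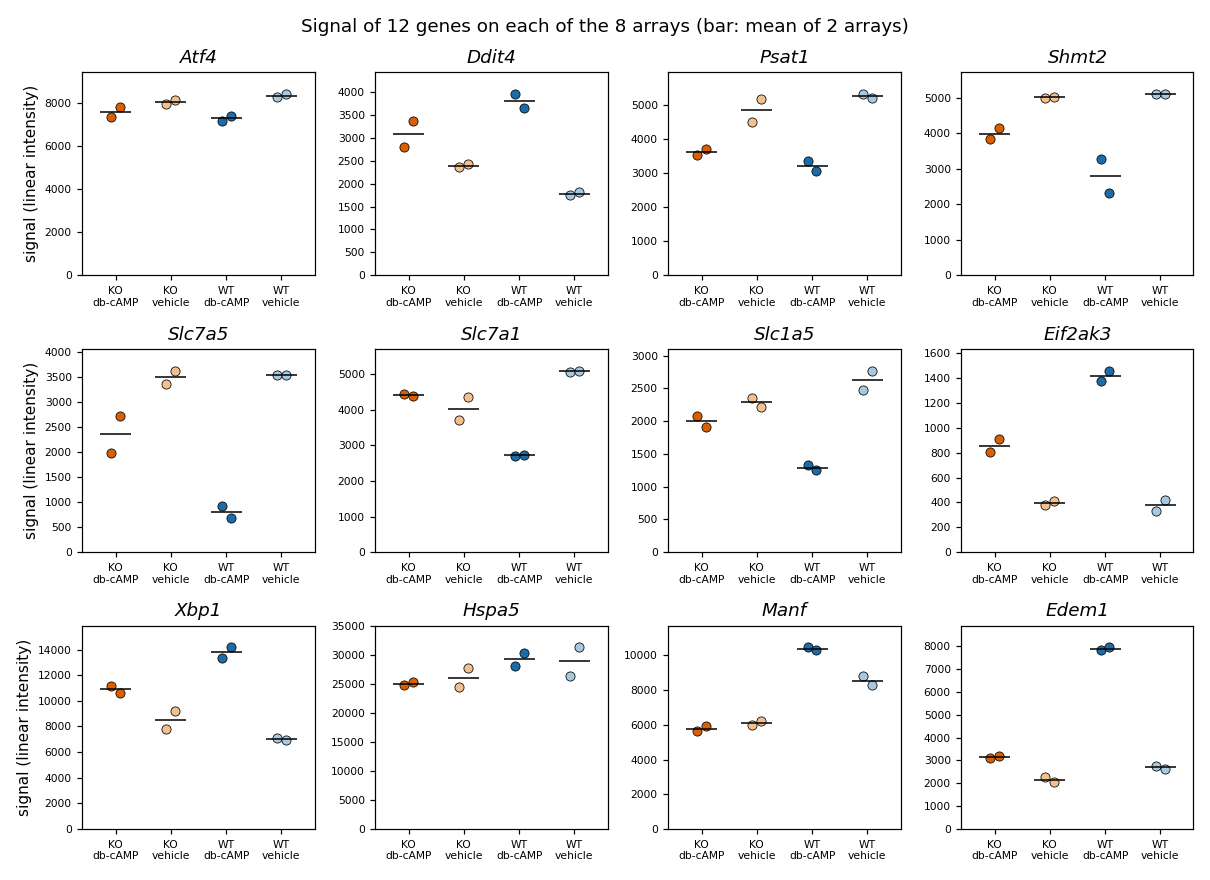
Linear signal intensity of 12 genes is plotted for each of the 8 arrays (y axis from 0, bars at the mean of 2 arrays), by group on the x axis. Slc7a5, Slc7a1 and Slc1a5 are lowest in WT cells with db-cAMP, Eif2ak3 and Edem1 are highest there, and Hspa5 overlaps between db-cAMP and vehicle in both genotypes.

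Of the sensors, Eif2ak3, which encodes PERK, showed the largest rise of the 37 genes. It had signals of 802 and 906 in KO cells with db-cAMP, against 376 and 411 in KO cells with vehicle. WT signals of Eif2ak3 were 1373 and 1459.6 with db-cAMP, against 330.3 and 421 with vehicle. Both pairs were apart by a wide margin, with KO db-cAMP arrays between WT db-cAMP arrays and vehicle arrays. The changes were 1.10 ± 0.14 (adjusted p = 0.000258) in KO and 1.91 ± 0.14 (adjusted p = 2.13e-07) in WT cells, and the effects differed by -0.80 ± 0.20 (adjusted p = 0.0192). That difference in Eif2ak3 lost its call without KO db-cAMP replicate 1, WT db-cAMP replicate 2, KO vehicle replicate 2 or WT vehicle replicate 1 (adjusted p = 0.0637 to 0.0959, and 0.00895 to 0.183 over all 17 alternatives). The mean of the 3 Eif2ak3 probe sets, of which the dimmest was below the median on all 8 arrays, gave a KO change of 0.64 (adjusted p = 0.504). The Eif2ak3 promoter is shown because this was the sensor gene with the largest change in both genotypes, and it held none of the 5 motifs.
Eif2ak3 promoter, GRCm38.p6 chr6:70844265-70844564, plus strand: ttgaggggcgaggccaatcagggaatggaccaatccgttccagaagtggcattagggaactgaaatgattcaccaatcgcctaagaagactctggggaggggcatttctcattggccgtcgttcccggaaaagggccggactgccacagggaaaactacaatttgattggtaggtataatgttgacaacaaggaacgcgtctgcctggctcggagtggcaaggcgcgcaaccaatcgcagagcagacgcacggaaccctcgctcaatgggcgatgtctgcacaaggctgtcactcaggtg

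Xbp1 was higher with db-cAMP in both genotypes. It had 11131 and 10649 in KO cells with db-cAMP, against 7810.0 and 9219 in KO cells with vehicle. WT signals of Xbp1 were 13370.3 and 14171 with db-cAMP, against 7079 and 6929 with vehicle, without overlap in either pair. The changes were 0.36 ± 0.081 (adjusted p = 0.0149) in KO and 0.97 ± 0.081 (adjusted p = 6.92e-07) in WT cells, and the effects differed by -0.61 ± 0.12 (adjusted p = 0.00349). The KO call of Xbp1 was lost without either KO db-cAMP array or KO vehicle replicate 1 (adjusted p = 0.0684 to 0.134, and 0.00489 to 0.192 over all 18 alternatives). The other 3 probe sets of Xbp1 changed by 0.93, 0.78 and 0.40 in WT cells. Of the plasma cell markers, Irf4 changed by -0.32 ± 0.07 (adjusted p = 0.0116) in KO and -0.70 ± 0.07 (adjusted p = 3.84e-06) in WT cells. The dim markers Jchain (1.11 in KO and 0.52 in WT cells), Sdc1 (0.46 and 0.10) and Prdm1 (-0.41 and -0.23) had no call. Their part in the Xbp1 result was not tested.

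Atf6 changed by -0.19 ± 0.20 (adjusted p = 0.68) in KO cells and was lower with db-cAMP in WT cells, at 237 and 181 in WT cells with db-cAMP, against 311 and 353 in WT cells with vehicle, a change of -0.66 ± 0.20 (adjusted p = 0.0203). The WT call of Atf6 was lost without WT db-cAMP replicate 2 or WT vehicle replicate 2 (adjusted p = 0.11 to 0.131, and 0.0107 to 0.131 over all 18 alternatives). Ern1, which encodes IRE1, was dim, with 191 and 148 in KO cells with db-cAMP, against 121 and 205 in KO cells with vehicle. WT signals of Ern1 were 44.6 and 213 with db-cAMP, against 192 and 169.9 with vehicle. Its WT db-cAMP arrays lay on both sides of the vehicle arrays, and it had no call, at 0.089 ± 0.52 (adjusted p = 0.959) in KO and -0.83 ± 0.52 (adjusted p = 0.25) in WT cells.

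Hspa5, which encodes BiP, a chaperone commonly read as a sign of ER stress, was not called with db-cAMP in either genotype. It had 24759 and 25273 in KO cells with db-cAMP, against 24416 and 27692 in KO cells with vehicle. WT signals of Hspa5 were 28079 and 30306 with db-cAMP, against 26395 and 31258 with vehicle. The treatments overlapped in both genotypes, and the changes were -0.056 ± 0.089 (adjusted p = 0.811) in KO and 0.022 ± 0.089 (adjusted p = 0.877) in WT cells. Hsp90b1, the ER-resident HSP90 protein GRP94, changed by 0.073 ± 0.072 (adjusted p = 0.662) in KO and 0.17 ± 0.072 (adjusted p = 0.0831) in WT cells. Canx, the membrane lectin chaperone calnexin, Pdia6, a protein disulfide isomerase, and Creld2, an ER stress-induced secreted protein, were not called either. Their changes were -0.018 ± 0.072 (adjusted p = 0.933), -0.06 ± 0.081 (adjusted p = 0.774) and -0.11 ± 0.087 (adjusted p = 0.547) in KO cells, in that order, and -0.04 ± 0.072 (adjusted p = 0.718), 0.11 ± 0.081 (adjusted p = 0.327) and -0.06 ± 0.087 (adjusted p = 0.648) in WT cells.

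Edem1, whose product hands misfolded glycoproteins to ERAD, rose most in this group. It had 3102 and 3213 in KO cells with db-cAMP, against 2255 and 2041 in KO cells with vehicle. WT signals of Edem1 were 7826 and 7945 with db-cAMP, against 2774 and 2621 with vehicle. The WT db-cAMP arrays stood far above the other 6, and the KO db-cAMP arrays were above both sets of vehicle arrays. The changes were 0.56 ± 0.079 (adjusted p = 0.000535) in KO and 1.55 ± 0.079 (adjusted p = 6.49e-09) in WT cells, and the effects differed by -0.99 ± 0.11 (adjusted p = 0.0001). The second Edem1 probe set changed by 0.69 in KO and 1.58 in WT cells. Edem1 was the ER gene with the largest change in both genotypes, and its promoter held 1 copy of the short cyclic AMP response site (TGACG, either strand), in capitals, whose first base in the window lies at -19 from the start, and 2 copies of CCACG.
Edem1 promoter, GRCm38.p6 chr6:108828391-108828690, plus strand: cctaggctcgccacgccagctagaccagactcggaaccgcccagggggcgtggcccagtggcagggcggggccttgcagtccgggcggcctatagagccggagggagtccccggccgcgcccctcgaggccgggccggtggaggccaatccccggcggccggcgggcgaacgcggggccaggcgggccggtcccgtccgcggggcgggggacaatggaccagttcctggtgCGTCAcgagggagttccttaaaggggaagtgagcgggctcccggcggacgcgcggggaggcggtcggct

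Calr, the soluble lectin chaperone calreticulin, changed by 0.14 ± 0.067 (adjusted p = 0.252) in KO cells and was higher with db-cAMP in WT cells, at 21140.5 and 20444 in WT cells with db-cAMP, against 15506 and 14802 in WT cells with vehicle, a change of 0.46 ± 0.067 (adjusted p = 0.000109). Manf, a secreted factor induced by ER stress, had 5621 and 5914 in KO cells with db-cAMP, against 5984 and 6209 in KO cells with vehicle. WT signals of Manf were 10456 and 10284 with db-cAMP, against 8783 and 8305 with vehicle. Only the WT arrays placed db-cAMP above vehicle, with changes of -0.08 ± 0.069 (adjusted p = 0.596) in KO and 0.28 ± 0.069 (adjusted p = 0.00587) in WT cells. The WT call of Manf was lost without WT vehicle replicate 2 (adjusted p = 0.0519, and 0.00554 to 0.0595 over all 18 alternatives). Dnajb9, the co-chaperone ERdj4 and an XBP1 target, had 1500.2 and 1402 in KO cells with db-cAMP, against 1083 and 997 in KO cells with vehicle. WT signals of Dnajb9 were 1149 and 1067 with db-cAMP, against 973 and 914 with vehicle. The treatments were apart in both genotypes, the KO change was called at 0.48 ± 0.10 (adjusted p = 0.0104), and the WT change, 0.23 ± 0.10 (adjusted p = 0.104), was not. The KO call of Dnajb9 was lost without either KO db-cAMP array or KO vehicle replicate 2 (adjusted p = 0.0519 to 0.119, and 0.0091 to 0.119 over all 18 alternatives), and the effects were not shown to differ between genotypes (interaction 0.25 ± 0.15 (adjusted p = 0.334)).

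The 4 ER genes that were lower with db-cAMP in WT cells were Herpud1, Sdf2l1, Pdia4 and Dnajb11. In KO cells none of the 4 passed, with changes of -0.33 (Herpud1) to -0.13 (Pdia4), and each had an adjusted p of 0.0612 or more. Herpud1, a membrane component of ERAD, had 929 and 606 in WT cells with db-cAMP, against 1228 and 1205 in WT cells with vehicle, a change of -0.69 ± 0.16 (adjusted p = 0.00351). Sdf2l1, a partner of BiP and its co-chaperones, had 2236 and 2170.2 in WT cells with db-cAMP, against 3327 and 3298 in WT cells with vehicle, a change of -0.59 ± 0.08 (adjusted p = 5.72e-05). Pdia4, a disulfide isomerase, had 995 and 1160.3 in WT cells with db-cAMP, against 1459.8 and 1516 in WT cells with vehicle and changed by -0.47 ± 0.10 (adjusted p = 0.00312), and with the mean of its probe sets, the second of which was below the median on all 8 arrays, by -0.23 (adjusted p = 0.612). Dnajb11, the co-chaperone ERdj3, had 2448 and 2305 in WT cells with db-cAMP, against 3179 and 2686 in WT cells with vehicle and changed by -0.30 ± 0.092 (adjusted p = 0.0218). In each of the 4 the WT db-cAMP arrays lay below the WT vehicle arrays. The WT call of Dnajb11 was lost without WT db-cAMP replicate 2 or WT vehicle replicate 1 (adjusted p = 0.118 to 0.227, and 0.00679 to 0.227 over all 18 alternatives). Sel1l, the partner of the HRD1 ubiquitin ligase, changed by 0.25 ± 0.10 (adjusted p = 0.174) in KO and 0.19 ± 0.10 (adjusted p = 0.184) in WT cells, without a call. Dnajc3, the co-chaperone that inhibits PERK, changed by -0.013 ± 0.081 (adjusted p = 0.963) in KO and -0.15 ± 0.081 (adjusted p = 0.174) in WT cells on its brightest probe set, while its other 4 probe sets gave -0.32 to -0.72 in WT cells.

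RefSeq promoters on GRCm38.p6 were matched for 34 of the 38 genes (36 promoters), and 5 motifs were searched on both strands. The ER stress response element, to which ATF6 binds with NF-Y, was written as CCAAT, 9 bases of any kind and CCACG. It was present in 7 of 14 ER chaperone and ERAD promoters, in 0 of 19 promoters of the ATF4 and amino acid arm and in 39 of 32851 promoters in all (0.119%). The sites of the 7 genes are given to show which chaperones carry the classical element, each read along the element with CCAAT and CCACG in capitals, and Hsp90b1 has a pair of them.
Calr element, chr8:84847075-84847093, strand opposite to the gene: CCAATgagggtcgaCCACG
Canx element, chr11:50325800-50325818, same strand as the gene: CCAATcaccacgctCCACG
Creld2 element, chr15:88819520-88819538, strand opposite to the gene: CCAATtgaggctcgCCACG
Dnajc3 element, chr14:118937827-118937845, same strand as the gene: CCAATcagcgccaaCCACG
Hsp90b1 element, chr10:86705638-86705656, same strand as the gene: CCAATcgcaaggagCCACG
Hsp90b1 element, chr10:86705533-86705551, strand opposite to the gene: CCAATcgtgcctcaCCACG
Hspa5 element, chr2:34772025-34772043, same strand as the gene: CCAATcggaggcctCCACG
Pdia6 element, chr12:17266491-17266509, same strand as the gene: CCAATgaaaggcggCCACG
On their brightest probe sets, of these 7 genes 0 were called with db-cAMP in KO cells and 1 in WT cells (Calr, higher), and their median log2 change was -0.018 in KO and 0.022 in WT cells. With the mean of its probe sets Dnajc3 was also called in WT cells, as lower, at -0.46 (adjusted p = 0.0149). Of the 7 ER genes with a promoter and no such match, 2 were higher in KO cells (Edem1 and Dnajb9) and 0 lower, with a median of -0.13, and in WT cells 1 was higher (Edem1) and 4 lower (the 4 named above), with a median of -0.30. That split was made after the values were seen and is a description.

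The core of the C/EBP-ATF response element, TGATGCAA, was found in the promoters of Chac1, Herpud1 and Slc7a11, 8.33% of the members' promoters and 0.895% of all. The full cyclic AMP response element, TGACGTCA, was found in that of Ppp1r15a, 2.78% of the members' promoters and 1.79% of all. The short site TGACG, which the full element contains, was in 38.9% of the members' promoters and 20.8% of all, and CCACG, contained in the ER stress element, in 80.6% and 32.8%. The members' promoters and all promoters were not matched for base composition, and their shares were not tested against each other. A match is a match of letters in this window and not a bound site.

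Setting the arms side by side, the median log2 change with db-cAMP in KO cells was -0.13 over 18 ATF4-arm genes and -0.056 over 15 ER genes, a gap of -0.076. In WT cells the medians were -0.29 and 0.022, a gap of -0.31. The gap was also taken per array, from values relative to each gene's mean over the 8 arrays. Its SD between replicate arrays, pooled over the groups, was 0.038. This per-array gap was 0.15 and 0.077 in KO cells with db-cAMP, against 0.12 and 0.052 with vehicle. Those arrays overlapped, so the negative KO gap between the median changes was not seen per array. In WT cells the per-array gap was -0.19 and -0.19 with db-cAMP, against 0.13 and 0.10 with vehicle, without overlap. Per array, the median of the ATF4 arm, relative to each gene's mean over the 8 arrays, was 0.053 and -0.026 in KO cells with db-cAMP and -0.15 and -0.17 in WT cells with db-cAMP, and 0.033 and 0.080 in KO cells with vehicle and 0.15 and 0.17 in WT cells with vehicle. For the ER arm it was -0.10 and -0.10 in KO cells with db-cAMP and 0.047 and 0.017 in WT cells with db-cAMP, and -0.091 and 0.027 in KO cells with vehicle and 0.017 and 0.062 in WT cells with vehicle. The ATF4 arm thus separated WT db-cAMP arrays from WT vehicle arrays, which the ER arm did not, and in KO cells the treatments overlapped for the ATF4 arm and not for the ER arm. Within the ATF4 arm the 7 regulators had a median of 0.064 in KO and 0.43 in WT cells, and the 5 transporters of -0.17 in KO and -0.90 in WT cells, without a test between these groups. Both regulator medians are the values of Ddit3 on its brightest probe set. The KO gap between the median changes was -0.0025 with the mean of probe sets and -0.023 without KO db-cAMP replicate 2.

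**Figure D3:**
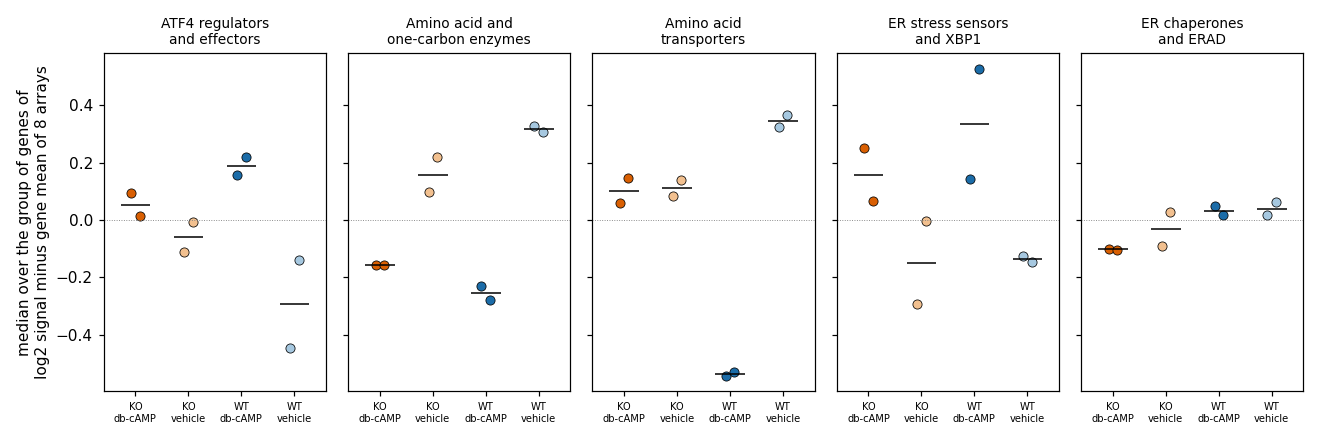
For each of the 8 arrays, grouped on the x axis, the median over a group of genes of the log2(signal + offset) value minus the gene's mean over 8 arrays is plotted. The panels are the ATF4 regulators and effectors, the enzymes, the transporters, the sensors with XBP1, and the ER chaperones and ERAD genes. In WT cells with db-cAMP the transporters sit at -0.54 and -0.53, the enzymes at -0.23 and -0.28 and the regulators at 0.16 and 0.22. In WT cells with vehicle they sit at 0.32 and 0.37, at 0.33 and 0.31 and at -0.44 and -0.14, in that order. The ER arm stays between -0.10 and 0.062 on all 8 arrays.

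Further genes of the same pathways came from lists of other members, picked by pathway but with earlier results of these data known. Their counts stand against the shares of all genes, 4.7% higher and 3.68% lower in KO cells and 16.4% higher and 18.6% lower in WT cells. ATF4 raises some tRNA synthetase genes when amino acids run short, and which of those listed it raises was not examined. Of 19 other tRNA synthetase genes tested, 2 were lower with db-cAMP in KO cells and 0 higher, and 13 were lower in WT cells and 0 higher. Rars, the arginyl-tRNA synthetase, had the largest called fall of the list in KO cells, with 5983 and 6216 in KO cells with db-cAMP, against 7324 and 7452 in KO cells with vehicle and a change of -0.28 ± 0.07 (adjusted p = 0.0277). Yars, the tyrosyl-tRNA synthetase, had the largest in WT cells, with 608 and 541 in WT cells with db-cAMP, against 1178 and 1101 in WT cells with vehicle and a change of -0.98 ± 0.11 (adjusted p = 1.01e-05). Both pairs were without overlap. Of 21 other ATF4 pathway genes 0 were higher and 1 lower in KO cells, and 2 were higher and 7 lower in WT cells. The largest fall was in Shmt1, the cytosolic serine hydroxymethyltransferase, at -0.53 ± 0.12 (adjusted p = 0.0142) in KO and -1.65 ± 0.12 (adjusted p = 1.68e-07) in WT cells, and the largest rise in WT cells was in Gadd45a, a growth arrest and DNA damage response gene, at 1.52 ± 0.29 (adjusted p = 0.001).

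The other ER folding and ERAD genes gave 2 higher and 1 lower of 31 in KO cells, and 10 higher and 4 lower in WT cells. Creb3l2, an ER-bound transcription factor, had the largest rise in KO cells, at 0.69 ± 0.16 (adjusted p = 0.0173). Serp1, a stress-induced partner of the translocon, had the largest rise in WT cells, at 0.94 ± 0.082 (adjusted p = 1.06e-06). Mbtps2, the site-2 protease that cleaves ATF6, had the largest fall in both, at -0.39 ± 0.11 (adjusted p = 0.0413) in KO and -1.03 ± 0.11 (adjusted p = 4.9e-06) in WT cells. Of 19 ER translocation genes 0 were called in KO cells by limma (5 at an unadjusted p under 0.05), and 3 were higher and 3 lower in WT cells, with Sec62 at 0.52 ± 0.079 (adjusted p = 0.000141) and Ssr2 at -0.32 ± 0.08 (adjusted p = 0.00683). The translocation counts in WT cells lay near the shares of all genes.

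KO and WT cells were compared under each treatment, and these comparisons share arrays with those of db-cAMP, so their values are given side by side and not as separate evidence. Under db-cAMP 17 members differed, 8 higher in KO and 9 lower, with 15.9% of all genes higher and 13.3% lower. By arm these were 5 higher and 3 lower of 18 ATF4-arm genes, 3 higher and 4 lower of 15 ER genes, and 0 higher and 2 lower of 4 sensor genes. The KO over WT differences were 1.54 ± 0.15 (adjusted p = 5.44e-06) for Slc7a5, 0.69 ± 0.083 (adjusted p = 3.61e-05) for Slc7a1, 0.63 ± 0.092 (adjusted p = 0.000177) for Slc1a5, 0.52 ± 0.12 (adjusted p = 0.00495) for Shmt2 and 0.30 ± 0.088 (adjusted p = 0.0209) for Mthfd2. The dimmer Shmt2 probe sets differed by 0.15, 0.55 and 0.13. With the mean of probe sets, calls were lost for Shmt2 (0.34, adjusted p = 0.129), Mthfd2 (0.15, adjusted p = 0.236) and Slc7a1 (0.43, adjusted p = 0.0784). Phgdh ran the other way, with 9993 and 9705 in KO and 12669 and 12485 in WT cells with db-cAMP, a difference of -0.35 ± 0.064 (adjusted p = 0.000884). Ddit4 (-0.31 ± 0.094) and Ppp1r15a (-0.34 ± 0.12), along with Eif2ak3 (-0.73 ± 0.14) and Xbp1 (-0.34 ± 0.081), were lower in KO. Among ER genes Edem1 was lowest relative to WT, at -1.32 ± 0.079 (adjusted p = 7.45e-08), then Manf at -0.85 ± 0.069 (adjusted p = 1.13e-06), and Calr and Hsp90b1 were lower by smaller amounts, at -0.29 and -0.32. Dnajc3 (0.61 ± 0.081), Dnajb9 (0.39 ± 0.10) and Herpud1 (0.44 ± 0.16) were higher in KO. With 1 array left out, 11 to 17 members were called, gained calls such as that of Hspa5 included, with 11 without KO db-cAMP replicate 1. The call of Herpud1 was lost without either KO db-cAMP array, WT db-cAMP replicate 2, either KO vehicle array or either WT vehicle array (adjusted p = 0.06 to 0.485, and 0.000932 to 0.485 over all 18 alternatives) and that of Ppp1r15a without either KO db-cAMP array or either WT db-cAMP array (adjusted p = 0.076 to 0.173, and 0.00887 to 0.173 over all 18 alternatives). Calls were also lost for Ddit4 without KO db-cAMP replicate 1 or WT db-cAMP replicate 1 (adjusted p = 0.141 to 0.28, and 0.00286 to 0.28 over all 18 alternatives), Mthfd2 without KO db-cAMP replicate 1 or WT db-cAMP replicate 1 (adjusted p = 0.0958 to 0.26, and 0.00904 to 0.26 over all 18 alternatives), Dnajb9 without KO db-cAMP replicate 1 or WT db-cAMP replicate 2 (adjusted p = 0.0748 to 0.102, and 0.0105 to 0.102 over all 18 alternatives), Calr without KO db-cAMP replicate 1 (adjusted p = 0.0558, and 0.000522 to 0.937 over all 18 alternatives) and Xbp1 without KO db-cAMP replicate 2 (adjusted p = 0.0636, and 0.00105 to 0.25 over all 18 alternatives).

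The scaling of the arrays bears on the genotype comparison. With an equal 75th percentile the median of all genes moved to -0.12 under db-cAMP and -0.096 under vehicle (KO minus WT), and the members split 5 higher and 14 lower under db-cAMP and 2 higher and 7 lower under vehicle. Hsp90b1 reversed between its probe sets, since the second one differed by 1.45 under vehicle and 1.08 under db-cAMP where the brightest gave -0.23 and -0.32. For Dnajc3 the other 4 probe sets differed by -0.17 to 0.14 under vehicle, where the brightest gave 0.47. Under db-cAMP they differed by 0.52, 0.11, 0.42 and, for the dimmest, -0.20, where the brightest gave 0.61.

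Under vehicle 8 members differed between KO and WT cells, 3 higher and 5 lower, with 5.06% of all genes higher and 5.78% lower. Manf had 5984 and 6209 in KO and 8783 and 8305 in WT cells with vehicle, a difference of -0.49 ± 0.069 (adjusted p = 0.000537). Phgdh had 10180.1 and 10108 in KO and 14687 and 14244 in WT cells with vehicle, a difference of -0.51 ± 0.064 (adjusted p = 0.000192). On these probe sets both were lower in KO cells under either treatment, with no overlap of arrays. For Phgdh the third of its 4 probe sets differed by 0.037 under db-cAMP and 0.06 under vehicle, and the mean of the 4 gave -0.18 (adjusted p = 0.0647) under db-cAMP, short of a call, and -0.33 (adjusted p = 0.0133) under vehicle. Dnajc3 (0.47 ± 0.081), Ddit4 (0.42 ± 0.094) and Xbp1 (0.28 ± 0.081) were higher, and Slc7a1 (-0.34 ± 0.083), Edem1 (-0.33 ± 0.079) and Sdf2l1 (-0.31 ± 0.08) lower. On the probe sets used, Ddit4 and Xbp1 were therefore higher in KO cells under vehicle and lower under db-cAMP. The other Xbp1 probe sets differed by 0.037, 0.015 and 0.16 under vehicle, and by -0.43, -0.31 and -0.24 under db-cAMP. The mean of the Xbp1 probe sets gave 0.12 (adjusted p = 0.481) under vehicle. The second Edem1 probe set differed by 0.15 under vehicle and -0.74 under db-cAMP, and the second Slc7a1 probe set by 0.51 under vehicle.

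With 1 array left out, 3 to 9 members were called under vehicle, a call gained by Hsp90b1 included, with 3 without WT vehicle replicate 1, and 5 without WT vehicle replicate 2, KO vehicle replicate 1 or KO vehicle replicate 2. Calls under vehicle were lost for Ddit4 without either KO vehicle array or WT vehicle replicate 1 (adjusted p = 0.0571 to 0.0773, and 0.00946 to 0.142 over all 18 alternatives), for Xbp1 without either KO db-cAMP array, KO vehicle replicate 2 or either WT vehicle array (adjusted p = 0.0723 to 0.329, and 0.00653 to 0.481 over all 18 alternatives), for Slc7a1 without KO vehicle replicate 1 or either WT vehicle array (adjusted p = 0.0813 to 0.168, and 0.00524 to 0.168 over all 18 alternatives), for Sdf2l1 without KO vehicle replicate 1 or either WT vehicle array (adjusted p = 0.0954 to 0.17, and 0.00667 to 0.17 over all 18 alternatives), and for Edem1 without KO vehicle replicate 2 or WT vehicle replicate 1 (adjusted p = 0.108 to 0.122, and 0.00312 to 0.591 over all 18 alternatives).

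**Figure D4:**
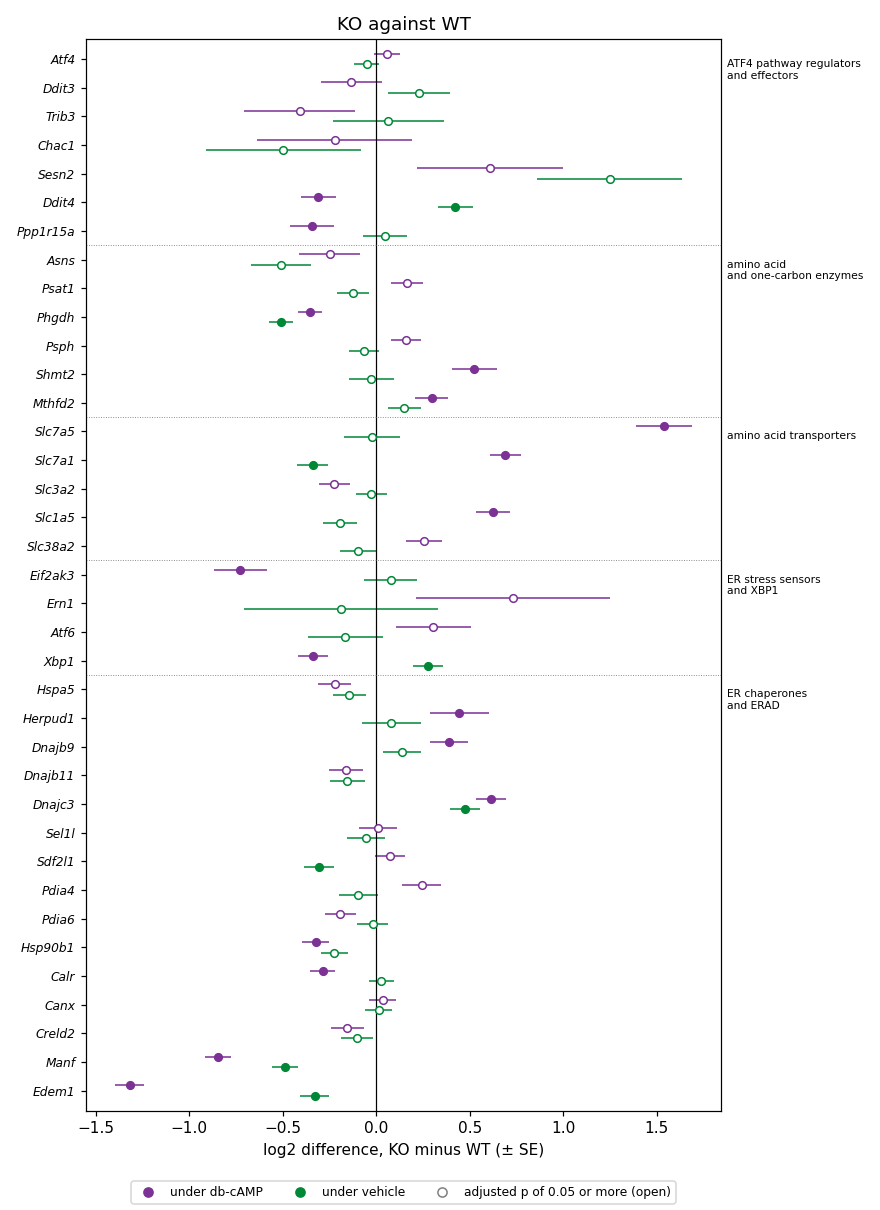
KO minus WT on the log2(signal + offset) scale, with the standard error of the fit, is plotted for the 37 genes under db-cAMP and under vehicle; filled points have an adjusted p under 0.05. Slc7a5, Slc7a1 and Slc1a5 lie right of 0 under db-cAMP and left of 0 under vehicle, while Manf and Phgdh lie left of 0 under both.

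The db-cAMP effect itself differed between the genotypes for 10 members, 4 with a higher KO effect and 6 with a lower one, against 6.7% and 5.09% of all genes. The 4 were the transporter genes Slc7a5, Slc7a1 and Slc1a5 (3 of 5 tested transporters) and Sdf2l1, each with a fall in WT cells on its brightest probe set. The 6 were Ddit4, Eif2ak3, Xbp1, Calr, Manf and Edem1, each with a rise in WT cells. Differences not given above were -0.36 ± 0.10 (adjusted p = 0.0285) for Manf, -0.31 ± 0.094 (adjusted p = 0.0464) for Calr and 0.38 ± 0.11 (adjusted p = 0.0459) for Sdf2l1. Those 3 calls did not outlast the removal of single arrays. Manf lost its call without either KO db-cAMP array, either WT db-cAMP array, KO vehicle replicate 2 or WT vehicle replicate 2 (adjusted p = 0.0548 to 0.131, and 0.0264 to 0.171 over all 17 alternatives), Calr without either KO db-cAMP array, either WT db-cAMP array, either KO vehicle array or either WT vehicle array (adjusted p = 0.0546 to 0.178, and 0.0409 to 0.22 over all 17 alternatives), and Sdf2l1 without either KO db-cAMP array, either WT db-cAMP array, KO vehicle replicate 1 or either WT vehicle array (adjusted p = 0.0673 to 0.149, and 0.043 to 0.165 over all 17 alternatives). The count was 6 to 9 with 1 array left out, 6 without KO db-cAMP replicate 1, and 2 without the intensity trend.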

How the data were processed

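RNA of 8 T cell samples was measured on Affymetrix mouse arrays. The deposited values are linear signal intensities per probe set, and MAS5 is the tool named per the submitters' processing notes (version not given in the sources used here). Biotinylated cRNA was made with a 3-prime kit, per the labels' protocols. Groups and replicate numbers came from the sample titles. Genes were named from the platform annotation (34945 of 45101 probe sets with 1 symbol, 932 with several), and a gene's brightest probe set over the 8 arrays stood for it. Signals were transformed as log2(signal + 5.48), the offset being the 10th percentile of all values, which understates the changes of dim genes. Testing was limited to genes above the array median on at least 2 arrays (12091, with 6102 set aside), with no further scaling.

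Differences were tested with limma 3.58.1 in R 4.3.3 (lmFit, eBayes with an intensity trend) over all 8 arrays with a term per group, with 4 residual degrees of freedom and 9 (median) added by eBayes. Adjusted p is Benjamini-Hochberg over all tested genes, and a gene is called under 0.05. Errors are standard errors of the fit. The number of arrays limits the precision. Arrays were not treated as paired. Deviations of same-numbered arrays did not correlate, which cannot show whether groups shared mice or cultures, and the labels do not state it. Alternatives were offsets of 1 and 32, no filter, equal 75th percentiles, quantile normalization, no trend, the mean of probe sets, every probe set, the replicate block, the 4 arrays compared, and each array left out. The fit was tested on simulated data. Promoters are from RefSeq. Plots used matplotlib 3.10.9 under Python 3.11.15.

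The 38 genes, the further lists and the markers were chosen with earlier results of these data known. All 38 could be named, and of each further list the called gene with the largest rise and fall in each db-cAMP comparison. Promoters were printed for genes called in both genotypes with the largest mean change per direction and arm.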

Additional observations from a re-analysis of the deposited data

Results flagged for a closer look

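For 10 genes the db-cAMP effect differed between KO and WT cells in the interaction test of limma. The effect (log2, KO minus WT) was higher in KO cells for Slc7a5, at 1.56 ± 0.21 (adjusted p = 0.000418), Slc7a1, at 1.03 ± 0.12 (adjusted p = 0.000122), Slc1a5, at 0.82 ± 0.13 (adjusted p = 0.00114), and Sdf2l1, at 0.38 ± 0.11 (adjusted p = 0.0459). It was lower for Edem1, at -0.99 ± 0.11 (adjusted p = 0.0001), Eif2ak3, at -0.80 ± 0.20 (adjusted p = 0.0192), Ddit4, at -0.73 ± 0.13 (adjusted p = 0.00293), Xbp1, at -0.61 ± 0.12 (adjusted p = 0.00349), Manf, at -0.36 ± 0.10 (adjusted p = 0.0285), and Calr, at -0.31 ± 0.094 (adjusted p = 0.0464). Each group held 2 arrays, and the poly-A controls, which differ between KO and WT arrays, were not tested as a cause. Of the 10 calls, 1 (Edem1) held under all 17 alternatives.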

How the results depend on the processing

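Of the member calls, 0 of 7 (db-cAMP in KO), 14 of 23 (db-cAMP in WT), 4 of 17 (KO against WT under db-cAMP), 1 of 8 (under vehicle) and 1 of 10 (interaction) held under every alternative, of which there were 18, or 17 for the interaction. Without the intensity trend the counts were 1 for db-cAMP in KO, 9 for KO against WT under db-cAMP, 1 under vehicle, and 2 for the interaction. All genes then gave, in that order, 144 higher and 44 lower, 1304 and 1133, 150 and 101, and 145 and 116. With the main settings they gave 568 and 445, 1926 and 1603, 612 and 699, and 810 and 615. With the mean of probe sets all genes gave 267 and 212 (db-cAMP in KO), 1349 and 982 (KO against WT under db-cAMP) and 398 and 296 (interaction). The member counts were then 4 for db-cAMP in KO, 9 for KO against WT under db-cAMP and 6 for the interaction. With each array left out in turn the counts ran from 3 to 8 (KO), 19 to 23 (WT), 11 to 17 (db-cAMP), 3 to 9 (vehicle) and 6 to 9 (interaction). The arm gap, ATF4 arm minus ER arm, then ran from -0.087 to -0.023 (KO), -0.31 to -0.24 (WT), 0.22 to 0.32 (KO against WT under db-cAMP, 0.26 with all arrays), -0.034 to 0.057 (under vehicle, 0.057 with all arrays and reversed without WT vehicle replicate 1) and 0.10 to 0.31 (interaction, 0.20 with all arrays). Other settings gave gaps of -0.0025 in KO with the mean of probe sets, -0.22 in WT without the filter, 0.31 (no filter) and 0.13 (quantile normalization) for KO against WT under db-cAMP, and 0.0066 (quantile normalization) and -0.11 (mean of probe sets) under vehicle. With the mean of probe sets Slc7a1 reversed to 0.18 (db-cAMP in WT), 0.55 (KO against WT under vehicle) and -0.13 (interaction), and Hsp90b1 to 0.38 under db-cAMP and 0.61 under vehicle (KO against WT), where dim or discordant probe sets enter the mean.

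With equal 75th percentiles all genes split 447 higher and 585 lower (db-cAMP in KO), 1371 and 2243 (KO against WT under db-cAMP) and 402 and 1177 (under vehicle), in place of 568 and 445, 1926 and 1603, and 612 and 699. Quantile normalization gave 597 and 502, 1685 and 1659, and 484 and 524. With the replicate block, whose number is not stated to pair the arrays (deviations correlated at -0.020 to 0.021), member counts were 7 (KO), 22 (WT), 18 (db-cAMP), 8 (vehicle) and 8 (interaction). In each case the cause of a lost call was not tested. With 2 arrays a group and no detection calls used, small changes of dim genes such as Chac1, Sesn2 and Ern1 were not detectable. A larger difference in Sesn2, 1.25 ± 0.39 for KO against WT under vehicle, was not called either (adjusted p = 0.0593).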
